A study of Mus musculus with 19 samples.

Results

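Genes of the sodium pump were examined in RNA sequencing libraries of sorted mouse nasal epithelial cells. The 7 genes were taken by symbol from 26221 entries of the normalized expression table: the beta subunit genes Atp1b1, Atp1b2 and Atp1b3 and the FXYD genes Fxyd3, Fxyd4, Fxyd5 and Fxyd6. All cells came from naive ChAT(BAC)-eGFP mice with the transgene Tg(RP23-268L19-EGFP)2Mik on a B6.Cg background, which drives enhanced green fluorescent protein (eGFP) with regulatory sequence of Chat, so that cholinergic cells are marked. Nasal epithelium was dissociated by dispase and a later papain step, cells stained by propidium iodide were left out as dead, and CD45-EpCAM+ cells were sorted into TCL lysis buffer. The eGFP+ cells, called brush cells in the labels, were split by forward and side scatter into a low gate (FSClow, 9 libraries) and a high gate (FSChi, 5 libraries), and eGFP- cells formed the comparison group (EpCAM, 5 libraries). EpCAM libraries mix all eGFP- epithelial cell types, and eGFP marks activity of the transgene. Whether the libraries of a group stem from different mice is not given in the labels, so the p-values cover only the variation among these libraries, part or all of which may be technical.

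The sodium pump (Na+/K+-ATPase) exports sodium and imports potassium at the cost of ATP, and the gradients it keeps up power many other transporters and channels. Its catalytic alpha subunit works with a glycosylated beta subunit, which is needed to fold alpha and carry it to the membrane, and often with a small membrane protein of the FXYD family, which tunes the affinity and speed of the pump. In epithelia of the airways and nose the pump of the basolateral membrane drives sodium absorption and fluid secretion.

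The FXYD family is named after a motif of phenylalanine, any residue, tyrosine and aspartate just outside the membrane segment. The coding sequence around that motif is shown because it is the stretch that defines the family. Each run of 42 bases was read from the mm10 genome along a GENCODE transcript, on the coding strand with introns removed, and capitals mark the 12 bases that encode the motif.
Fxyd3: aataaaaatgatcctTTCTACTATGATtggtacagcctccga
Fxyd4: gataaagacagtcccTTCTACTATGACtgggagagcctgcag
Fxyd5: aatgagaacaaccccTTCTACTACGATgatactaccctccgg
Fxyd6: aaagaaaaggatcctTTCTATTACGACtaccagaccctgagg
These windows span chr7:31071350-31072181 on the minus strand for Fxyd3 (3 exons), chr6:117934484-117935155 on the minus strand for Fxyd4 (3 exons), chr7:31035267-31035410 on the minus strand for Fxyd5 (2 exons) and chr9:45390648-45390793 on the plus strand for Fxyd6 (2 exons). Within the motif, Fxyd3 and Fxyd4 shared 11 of 12 bases, as did Fxyd3 and Fxyd5, whereas Fxyd3 and Fxyd6 shared 9. Over all 42 bases the pairs shared from 25 (Fxyd4 and Fxyd5) to 30 (Fxyd3 and Fxyd4).

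The 250 bases before the transcription start are shown for Fxyd6, Fxyd3 and Atp1b1, the genes whose levels separated all 3 groups. They come from RefSeq (GRCm38.p6, mm10), read 5′ to 3′ on the strand of the gene, and capitals mark matches to the CCAAT box (CCAAT or ATTGG) and the GC box (GGGCGG or CCGCCC).
Fxyd6: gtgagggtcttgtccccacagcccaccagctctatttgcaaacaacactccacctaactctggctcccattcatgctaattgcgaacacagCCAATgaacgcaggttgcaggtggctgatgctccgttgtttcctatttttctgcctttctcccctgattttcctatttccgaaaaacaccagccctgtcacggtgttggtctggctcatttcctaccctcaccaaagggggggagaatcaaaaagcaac
Fxyd3: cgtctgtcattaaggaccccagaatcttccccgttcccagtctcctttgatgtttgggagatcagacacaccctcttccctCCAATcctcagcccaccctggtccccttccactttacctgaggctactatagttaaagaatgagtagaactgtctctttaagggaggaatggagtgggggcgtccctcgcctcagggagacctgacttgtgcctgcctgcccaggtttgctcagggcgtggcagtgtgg
Atp1b1: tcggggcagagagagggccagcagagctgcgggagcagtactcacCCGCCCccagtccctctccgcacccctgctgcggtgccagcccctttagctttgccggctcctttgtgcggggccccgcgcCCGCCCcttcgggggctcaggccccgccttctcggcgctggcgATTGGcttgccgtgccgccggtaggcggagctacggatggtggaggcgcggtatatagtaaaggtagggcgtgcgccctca
The window of Fxyd6 lies inside the RefSeq span of the gene (chr9:45369470-45396159), so that the start used is an internal one. These intervals are chr9:45369935-45370184 (plus strand), chr7:31076698-31076947 (minus strand) and chr1:164458356-164458605 (minus strand). Each held 1 CCAAT match, and that of Atp1b1 also held 2 GC box matches. The CCAAT letters occurred in 33.85% and the GC box letters in 32.74% of 32851 promoters of this length, the motifs do not overlap, and both strands were searched. The GC content was 50.4% for Fxyd6, 55.2% for Fxyd3 and 70.4% for Atp1b1, against 53.2% over all promoters. The POU octamer ATGCAAAT (1.60% of promoters), the forkhead motif TGTTTAC (3.17%) and the TATA box TATAAA (12.37%) were not found in these windows on either strand, which says nothing about the binding of any factor.

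Library totals ran from 1348428 counts in FSChi replicate 2 to 7477695 in FSChi replicate 3. Levels are CPM, read counts scaled to library size with TMM factors, and log2 fold changes with standard errors (SE) come from an edgeR quasi-likelihood fit to all 19 libraries in which 13340 genes were tested and called at an adjusted p under 0.05. The eGFP+ gates carried tuft and brush cell markers, whose summed level over 10 genes was 8132 to 12726 CPM in FSClow, 7863 to 13466 CPM in FSChi and 11.04 to 27.9 CPM in EpCAM. In 5 of 19 libraries the column of the count table did not match best the single-library file of that name: those of FSChi replicates 3, 4 and 5 and EpCAM replicates 1 and 2. Columns 3 and 4 of FSChi matched files 4 and 5 of that group, the EpCAM pair was crossed within its group, and column 5 of FSChi matched no file closely. The file of FSChi replicate 3 was nearly empty, with 6807 expected counts. For the 7 genes, calls that ended over the 14 matching libraries are named beside each result. That set holds all FSClow libraries, FSChi replicates 1 and 2 and EpCAM replicates 3, 4 and 5. The loss of power with so few FSChi libraries was not tested apart. With log2 TPM values that include the nearly empty file, limma called 3 or 5 of the 7 genes in FSClow against EpCAM with pseudocounts of 0.1 and 1, 1 or 2 in FSChi against EpCAM and 0 in FSChi against FSClow. The same fits called 15.3% or 19.7%, 8.49% or 13.4% and 2.05% or 6.09% of 15821 genes, and calls that ended only there are not named again. Relative log expression scaling in place of TMM moved the median over all tested genes, on the log2 scale, from 0.05 to -0.14 for FSClow against EpCAM and from -0.02 to -0.14 for FSChi against EpCAM. Under that scaling none of the called differences of the 7 genes changed direction, whereas the share of higher genes among all calls of the first comparison moved from 48.7% to 38.2%.

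Of the 7 genes, 6 passed the filter on low counts and Fxyd5 did not. In FSClow against EpCAM all 6 tested genes were called, where 45.1% of all tested genes were: Fxyd6 and Atp1b2 were higher (22.0% of tested genes), and Atp1b1, Atp1b3, Fxyd3 and Fxyd4 were lower (23.1%). In FSChi against EpCAM 4 of 6 were called, with a background of 25.6%: the same Fxyd6 and Atp1b2 were higher (13.5%), and Atp1b1 and Fxyd3 were lower (12.2%). In FSChi against FSClow 3 of 6 were called, with a background of 24.8%: Atp1b1 and Fxyd3 were higher (15.5%) and Fxyd6 was lower (9.30%). Each pair of these comparisons shares 1 group of libraries. Where groups are said below not to overlap, the share of all tested genes that separate likewise was not computed. Such statements are thus descriptions only. In these sorted bulk samples fewer cells that express a gene and less RNA of it per cell cannot be told apart.

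**Figure D1:**
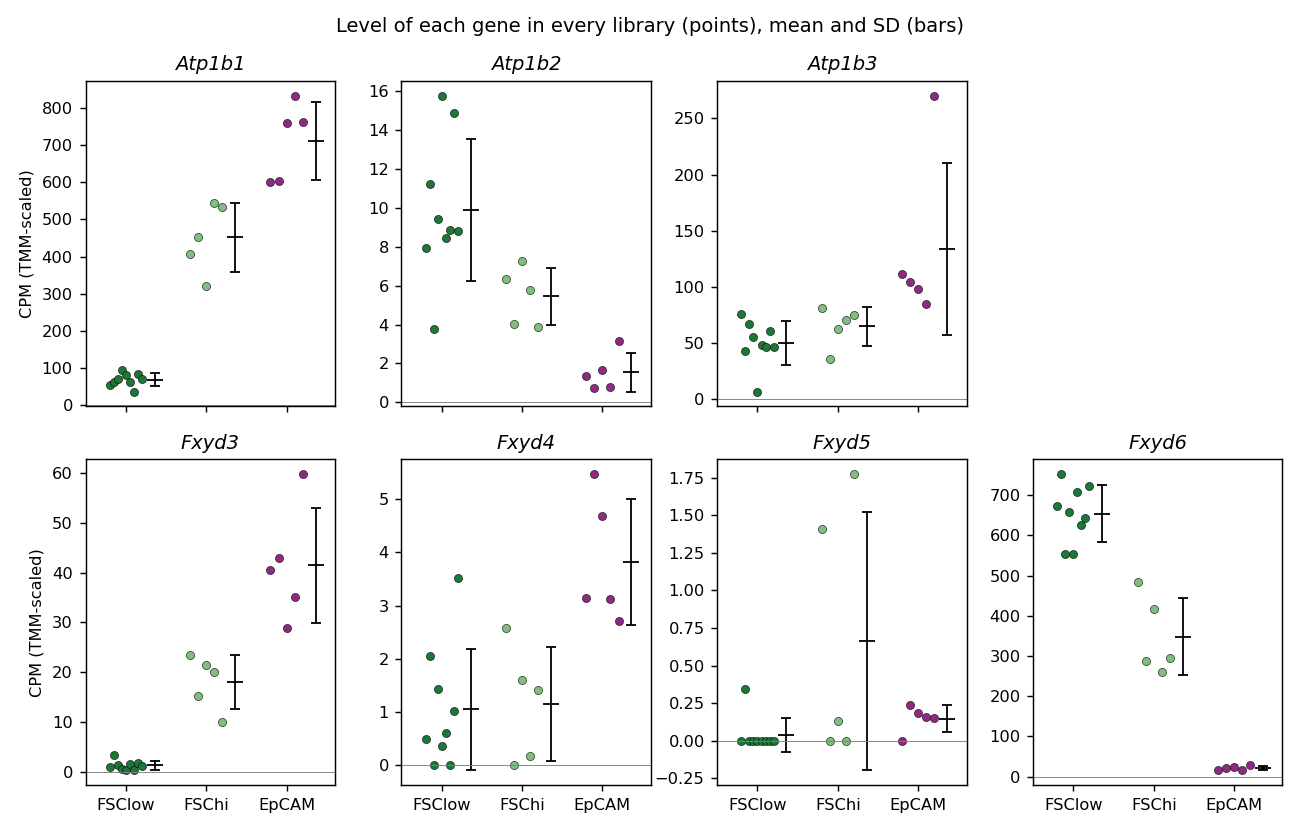
Level of each gene (CPM scaled with TMM factors, linear axes that differ between panels) in every library, with points in order of replicate number and the mean and SD of each group beside them (FSClow n = 9, FSChi n = 5, EpCAM n = 5). Atp1b1 and Fxyd3 step up from FSClow over FSChi to EpCAM, Fxyd6 steps down in the same order, and Fxyd5 is near 0 in all groups.

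Atp1b1 encodes the beta subunit that is most widespread in epithelia (Entrez 11931, mm10 chr1:164437099-164458355). It was lowest in FSClow, where it ran from 35.8 to 93.7 CPM with a median of 69.0 CPM. The FSChi libraries held 407, 452, 321, 545 and 533 CPM and the EpCAM libraries 601, 603, 760, 833 and 762 CPM, in order of replicate. None of the 3 groups overlapped another. Means and SD were 67.8 ± 17.5 CPM for the 9 FSClow libraries, 452 ± 92.6 CPM for the 5 of FSChi and 712 ± 105 CPM for the 5 of EpCAM. FSClow lay 10.5-fold below EpCAM by the fit (log2 fold change -3.39 ± 0.20, SE, edgeR adjusted p = 2.8e-12), and FSChi lay 6.65-fold above FSClow (2.73 ± 0.19, SE, edgeR adjusted p = 8.5e-10), the sixth smallest p of the 13340 genes. FSChi against EpCAM gave -0.66 ± 0.22 (SE, edgeR adjusted p = 0.032). That call ended without EpCAM replicate 4 or 5 (adjusted p = 0.0592 and 0.051), without FSChi replicate 2 or 3 (adjusted p = 0.0606 and 0.0682), with RSEM counts (adjusted p = 0.109, or 0.0581 without the nearly empty file) and in the 14 matching libraries (adjusted p = 0.0846). Atp1b1 overlaps Nme7, whose level was 22.01 ± 7.84, 20.96 ± 6.77 and 23.2 ± 2.71 CPM (SD) in FSClow, FSChi and EpCAM. Whether reads were counted by strand is not given in the sources used here.

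Atp1b2, a beta subunit also known as an adhesion molecule on glia (Entrez 11932, chr11:69599728-69605978), went the other way at a low level. FSClow held 3.78 to 15.8 CPM with a median of 8.86 CPM, FSChi 6.35, 4.02, 7.26, 5.79 and 3.90 CPM, and EpCAM 1.37, 0.713, 1.68, 0.779 and 3.16 CPM. Every eGFP+ library lay above every EpCAM library, while the eGFP+ gates overlapped. The gene was 6.26-fold higher in FSClow than in EpCAM (log2 fold change 2.65 ± 0.42, SE, edgeR adjusted p = 1.4e-05) and 3.51-fold higher in FSChi (1.81 ± 0.45, SE, edgeR adjusted p = 0.0043). The latter call ended in the 14 matching libraries (adjusted p = 0.16) and with log2 TPM values (limma adjusted p from 0.108 to 0.892). FSChi against FSClow gave -0.83, with a 95% interval of -1.58 to -0.09 before adjustment, and missed the threshold with an adjusted p of 0.12 from edgeR.

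Atp1b3, a broadly expressed beta subunit (Entrez 11933, chr9:96332655-96364431), was lower in FSClow than in EpCAM. FSClow ran from 6.81 to 76.4 CPM with a median of 48.1 CPM, FSChi held 81.4, 36.2, 62.4, 70.2 and 74.8 CPM, and EpCAM 112, 105, 98.1, 85.2 and 270 CPM. All eGFP+ libraries lay below all EpCAM libraries, and the extremes were FSClow replicate 5, with 19 reads, and EpCAM replicate 5. FSClow against EpCAM gave -1.42 ± 0.34 (SE, edgeR adjusted p = 0.0012). For FSChi the value was -1.04 ± 0.39 (SE), just outside the threshold (edgeR adjusted p = 0.056), and it passed with relative log expression scaling (adjusted p = 0.0348), with RSEM counts (0.0489), with DESeq2 (0.0199), with the reads recovered from the normalized table (0.0458), with the 2 compared groups alone (0.0304) and without EpCAM replicate 3 or 4 or FSClow replicate 5 (0.0468, 0.040 and 0.0096). The eGFP+ gates overlapped and differed by 0.39, with a 95% interval of -0.29 to 1.06 (edgeR adjusted p = 0.45).

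Fxyd6, an FXYD protein known from brain, inner ear and taste tissue (Entrez 59095, chr9:45369470-45396159), was higher in the eGFP+ cells of both gates. It ran from 552 to 752 CPM in FSClow with a median of 658 CPM. FSChi held 483, 288, 417, 260 and 294 CPM, and EpCAM 17.3, 22.3, 25.1, 16.4 and 28.3 CPM. The 3 groups did not overlap. Fxyd6 was 29.9-fold higher in FSClow than in EpCAM (log2 fold change 4.90 ± 0.23, SE, edgeR adjusted p = 1.6e-13), again the sixth smallest p of the comparison, and 15.9-fold higher in FSChi (3.99 ± 0.23, SE, edgeR adjusted p = 4.9e-12). FSChi lay below FSClow by 1.88-fold (-0.91 ± 0.18, SE, edgeR adjusted p = 0.00071), a call that ended in the 14 matching libraries (-0.72, adjusted p = 0.10). The spread among FSClow libraries was small, with a coefficient of variation of 10.7%.

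Fxyd3, an FXYD gene of many epithelia (Entrez 17178, chr7:31070535-31076697), ran opposite to Fxyd6. FSClow held 0.359 to 3.41 CPM with a median of 1.06 CPM, or 37 reads in 9 libraries. FSChi held 23.5, 15.3, 21.4, 19.97 and 9.92 CPM, and EpCAM 40.6, 43.0, 28.8, 35.2 and 59.8 CPM. None of the 3 groups overlapped another. FSClow lay 31.5-fold below EpCAM (log2 fold change -4.98 ± 0.35, SE, edgeR adjusted p = 5.6e-11) and FSChi 13.8-fold above FSClow (3.79 ± 0.35, SE, edgeR adjusted p = 4.2e-08). FSChi against EpCAM gave -1.19 ± 0.35 (SE, edgeR adjusted p = 0.013), which ended in the 14 matching libraries (adjusted p = 0.24) and with log2 TPM values (limma adjusted p from 0.057 to 0.249). The gene overlaps Lgi4, which stayed at 3.06 ± 1.18 CPM in EpCAM (SD, n = 5) and below 1 CPM on average in both gates.

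Fxyd4, known as a regulator of the pump in kidney collecting duct (Entrez 108017, chr6:117933558-117937714), was scarce everywhere. FSClow ran from 0 to 3.52 CPM with a median of 0.605 CPM, FSChi held 2.59, 0, 1.61, 0.187 and 1.42 CPM, and EpCAM 3.14, 5.47, 4.68, 3.12 and 2.71 CPM. Of the FSClow libraries 8 of 9 lay below all EpCAM libraries, as did all 5 FSChi libraries. FSClow against EpCAM was called at -1.79 ± 0.65 (SE, edgeR adjusted p = 0.026), which did not hold without EpCAM replicate 2 (adjusted p = 0.0711) or in the 14 matching libraries (adjusted p = 0.121). FSChi against EpCAM was not called at -1.57 ± 0.75 (SE, edgeR adjusted p = 0.13). It was called by limma on the authors' normalized values (-2.04, adjusted p = 0.0292) and in 3 fits of TPM values (-1.90 to -3.63, adjusted p = 0.00445 to 0.0289), that is in 4 of 33 alternatives. The gates differed by 0.22, with a 95% interval of -1.18 to 1.61 (edgeR adjusted p = 0.86).

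Fxyd5, or dysadherin, a regulator linked to cell adhesion (Entrez 18301, chr7:31032723-31042331), was barely detected. It had 1 read in 9 FSClow libraries, 4 reads in 5 EpCAM libraries and 12 reads in 5 FSChi libraries, of which 6 came from replicate 1, 5 from replicate 5 and 1 from replicate 3. The ratio of FSChi to FSClow was 16.0, with a 95% exact binomial interval of 2.36 to 682 that covers counting error only. Without a filter on low counts the fit called this difference (3.39, edgeR adjusted p = 0.0351) and neither of the others (adjusted p = 0.28 and 0.33). Fxyd5 overlaps the predicted gene Gm38984 and Mir7050, so these few reads cannot be assigned with certainty.

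**Figure D2:**
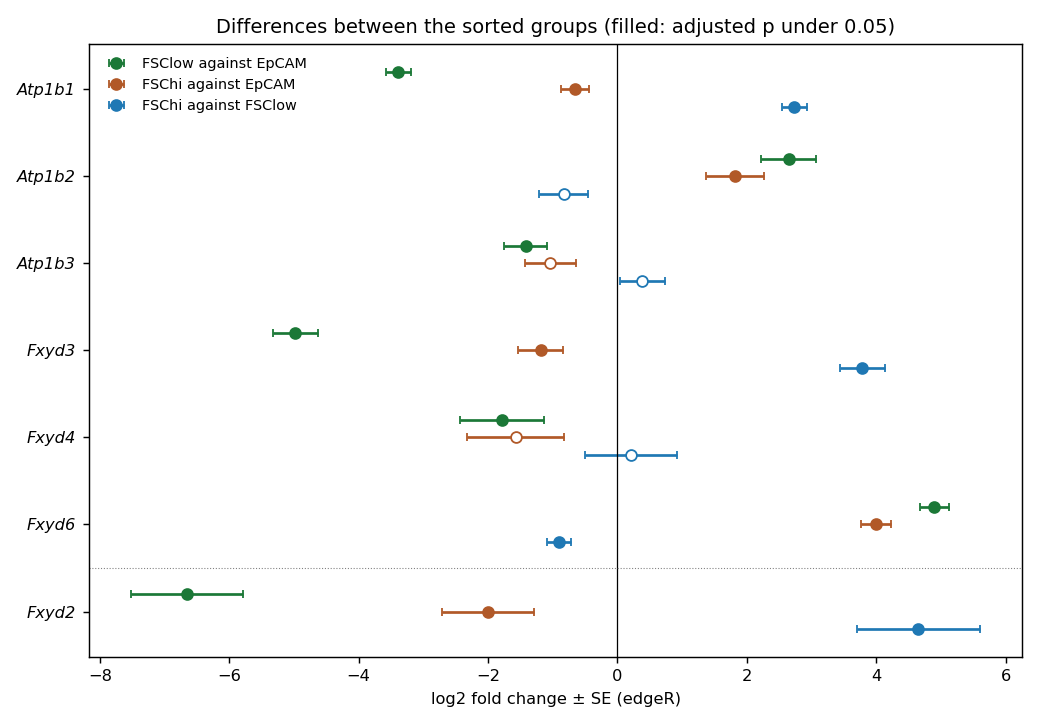
Log2 fold change with SE from the edgeR fit (x axis) for the 6 tested genes and, below the dotted line, Fxyd2, in the 3 comparisons. Filled points passed an adjusted p of 0.05; Fxyd6 and Atp1b2 lie right of 0 in both comparisons with EpCAM, and Atp1b1 and Fxyd3 lie left of 0 there and right of 0 in FSChi against FSClow.

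Of the other FXYD genes only Fxyd2, the gamma subunit of the kidney pump, passed the filter. Its reads numbered 180 over 5 EpCAM libraries against 1 over 9 FSClow libraries, which is a ratio of 182 (95% exact binomial interval 32.3 to 7246, counting error only). Against FSClow, FSChi held 34 reads, a ratio of 45.2 (7.58 to 1837), and 26 of these reads came from FSChi replicate 1. The fitted difference between the gates was 4.65 on the log2 scale with all libraries and 2.87 without that replicate. By library FSChi held 6.11, 0, 0.538, 0.373 and 0.709 CPM and EpCAM 5.10, 8.08, 10.9, 4.52 and 4.97 CPM, so that FSChi replicate 1 alone reached the EpCAM range. Fxyd2 begins 3549 bases after the end of Fxyd6 on chromosome 9, and the genes took opposite directions against EpCAM in both gates. The call of Fxyd2 in FSChi against EpCAM (-2.0 ± 0.71, SE, edgeR adjusted p = 0.040) ended under 16 of 35 alternatives, with adjusted p up to 0.581, and the value was -3.84 without FSChi replicate 1. Fxyd1, or phospholemman, had 0 reads in FSClow, 7 in FSChi and 22 in EpCAM, and Fxyd7 had 1 read in all 19 libraries.

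Levels of different genes can be compared only per transcript length, for which the deposited TPM values of 18 single-library files were used, leaving out the nearly empty one. Summed over the beta genes, mean TPM with its SD was 101 ± 30.8 for FSClow (n = 9), 335 ± 62.1 for FSChi (n = 4) and 630 ± 85.2 for EpCAM (n = 5). For the FXYD genes the sums were 643 ± 106, 415 ± 99.4 and 365 ± 44.3 TPM in that order. With CPM divided by union exon length the FXYD sums were 160 ± 17.6 (n = 9), 89.98 ± 25.2 (n = 5) and 17.9 ± 3.11 (n = 5) CPM per kilobase, so that the distance of EpCAM from the gates was far wider on that scale, and the beta sums were 45.4 ± 9.01, 175 ± 31.7 and 287 ± 50.3. The beta sums of the 3 groups did not overlap in TPM (64.99 to 153.15, 285.43 to 418.16 and 536.22 to 732.91 TPM).

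The share of each gene in its family was then read by group. Among beta genes Atp1b1 made up 51.4 ± 11.7% (SD, same n) in FSClow, 85.1 ± 4.87% in FSChi and 82.9 ± 7.05% in EpCAM. Atp1b3 made up 41.3 ± 14.7%, 13.4 ± 4.62% and 16.8 ± 6.97%, and Atp1b2 7.33 ± 3.71%, 1.55 ± 0.72% and 0.304 ± 0.1004%, in the same order. In TPM the Atp1b1 share of FSChi (80.1 to 91.1%) overlapped that of EpCAM (71.4 to 89.8%) and not that of FSClow (36.5 to 77.0%). With CPM divided by union exon length, where FSChi has 5 libraries, its share ran from 78.8 to 90.1%. On that scale it overlapped both EpCAM (68.5 to 88.3%) and FSClow (34.3 to 79.8%). Fxyd6 made up 97.9 ± 1.32% of FXYD TPM in FSClow, 71.1 ± 3.73% in FSChi and 5.45 ± 1.10% in EpCAM, and Fxyd3 made up 1.82 ± 1.31%, 26.0 ± 4.13% and 82.3 ± 4.61%. With CPM divided by union exon length in place of TPM the share of Fxyd6 was 99.5%, 94.4% and 29.5%, in the same order of groups. That of Fxyd3 was 0.156%, 4.20% and 47.6%, and in EpCAM it ran from 33.7 to 56.0% by library. That scale differs from TPM both in how reads were counted and in the length used, and these were not told apart. These shares are descriptions, and no test was made of them.

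**Figure D3:**
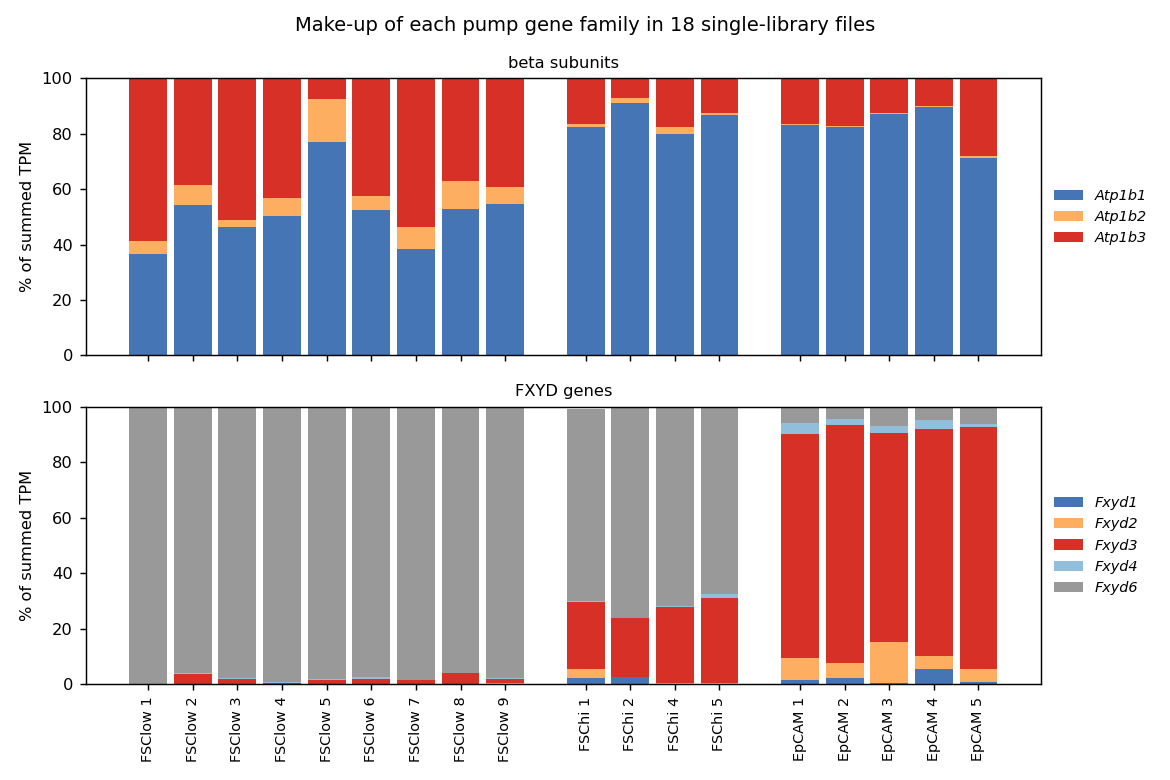
Share of each gene in the summed TPM of its family (y axis, percent), 1 bar per single-library file, for beta subunits and FXYD genes; the nearly empty file of FSChi replicate 3 and genes that never exceed 1% are left out. Fxyd6 fills nearly all of the FXYD bar in FSClow and most of it in FSChi, while Fxyd3 fills most of it in EpCAM. By CPM per union exon length, not drawn, the mean Fxyd3 share in EpCAM was 47.6%.

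Because FSChi lay between FSClow and EpCAM for Atp1b1, Fxyd3 and Fxyd6, markers of other epithelial cells were read beside these values. All 12 olfactory sensory neuron markers, all 8 basal cell markers and 6 of 8 sustentacular cell markers tested were higher in FSChi than in FSClow. Of all tested genes 15.5% were higher in that comparison. Among other lists 3 of 6 secretory, 3 of 7 ciliated and 0 of 4 red blood cell markers were higher. So were 4 of 6 Bowman gland and duct markers, while Sox9 of that list was lower. Of the markers tested, 2 of 2 stromal or endothelial, 1 of 2 glial or ensheathing and 1 of 2 leukocyte genes were higher. Of 10 tuft or brush markers 2 were higher and 2 lower. Gng13, listed as a neuron marker, was also higher in FSChi than in EpCAM. The summed neuron markers were 65.6 to 249 CPM in FSClow, 238 to 3160 CPM in FSChi and 3704 to 6004 CPM in EpCAM. Sustentacular markers summed to 243 to 702, 476 to 3921 and 4535 to 8484 CPM, and basal markers to 2.87 to 145, 36.3 to 2123 and 2077 to 6474 CPM, in the same order. The defining markers Omp and Krt5 averaged 1005 and 76.9 CPM in FSChi, against 13.3 and 1.93 CPM in FSClow. Omp had 0 reads in 1 of 9 FSClow libraries and Krt5 in 4 of 9, and each had reads in all 5 FSChi libraries.

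Each FSChi library was also set against the EpCAM mean. Atp1b1 stood at 57.2, 63.5, 45.1, 76.5 and 74.9% of the EpCAM mean in FSChi replicates 1 to 5, and Fxyd3 at 56.7, 36.8, 51.5, 48.1 and 23.9%. Summed neuron markers stood at 69.3, 5.21, 30.3, 67.2 and 35.0%, and basal markers at 51.8, 2.28, 0.886, 20.7 and 24.3%. FSChi replicate 2, the library with the fewest counts, held Omp at 1.61 CPM, neuron markers at 5.21%, sustentacular markers at 7.90%, basal markers at 2.28% and secretory markers at 0.688% of the EpCAM mean, while its Atp1b1 stood at 63.5% and its Fxyd3 at 36.8%. In the same library ciliated cell markers stood at 35.5% and markers of ionocytes and microvillar cells at 36.8%. The sums of the FSClow libraries were at similar levels, with 15.4 to 39.2% and 26.6 to 42.4% for these lists. Gene by gene, 6 of 7 tested ciliated and 8 of 10 ionocyte and microvillar markers were lower in FSClow than in EpCAM. Their median log2 fold changes were -4.04 and -4.38. In FSChi against EpCAM 3 of 7 and 6 of 10 were lower. Of all tested genes 23.1% and 12.2% were lower in these 2 comparisons. Hepacam2, of the ionocyte and microvillar list, was higher in both gates than in EpCAM. Of that list 5 of 10 genes, Foxi1 among them, were higher in FSChi than in FSClow, against 15.5% of all tested genes. The part of admixed cells in the levels of the pump genes was not tested.

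**Figure D4:**
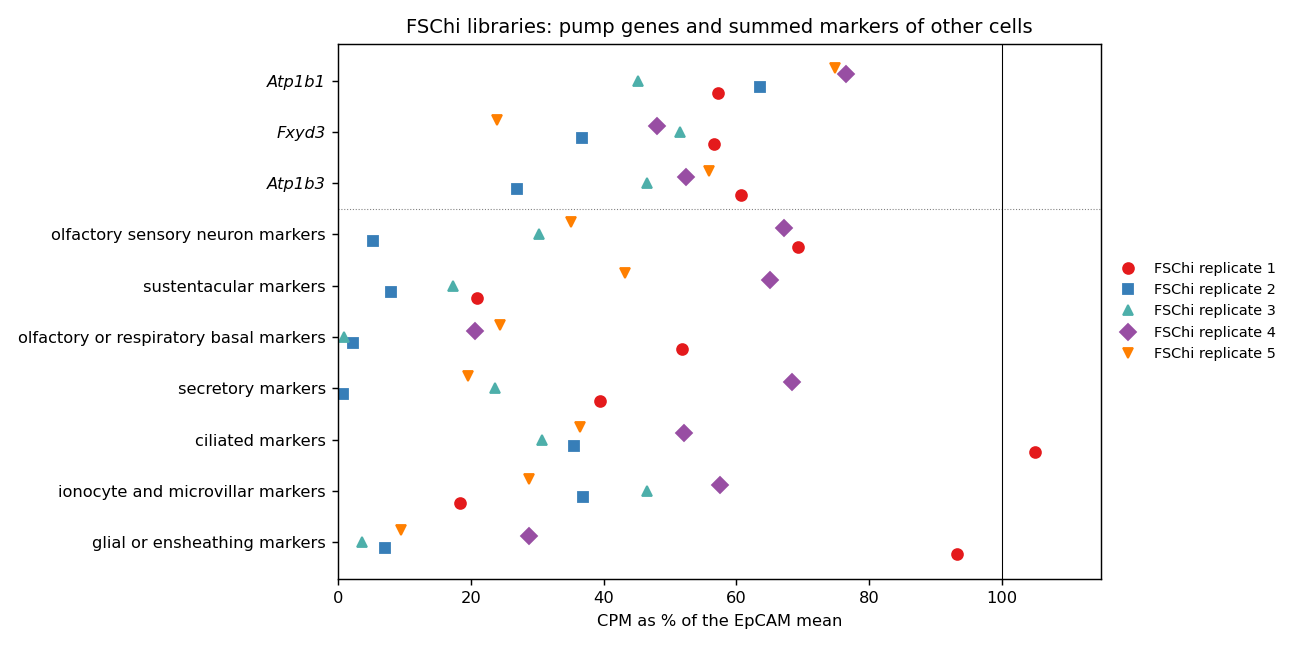
Level of 3 pump genes (above the dotted line) and of summed markers of 7 other cell classes (below it) in each FSChi library, as a percentage of the mean of the 5 EpCAM libraries (x axis; the vertical line is 100%). FSChi replicate 2 (squares) is at 63.5% for Atp1b1 and at or below 7.90% for neuron, sustentacular, basal, secretory and glial markers, but at 35.5% for ciliated markers and 36.8% for ionocyte and microvillar markers. The FSClow libraries, which are not drawn, held 15.4 to 39.2% for ciliated and 26.6 to 42.4% for ionocyte and microvillar markers. These are sums, and 6 of 7 tested ciliated and 8 of 10 ionocyte and microvillar markers were each lower in FSClow than in EpCAM.

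Of 15 tested genes of sodium entry and cotransport, which let sodium in or use its gradient, 3 were higher and 9 lower in FSClow than in EpCAM, with a median log2 fold change of -1.42. Of all tested genes 22.0% were higher and 23.1% lower in that comparison, with a median of 0.05. The call of Slc9a2, among the higher genes, ended in the 14 matching libraries. The epithelial sodium channel, the entry step of sodium absorption, was nearly without reads of its beta and gamma subunit genes in FSClow: Scnn1b had 1141 reads in EpCAM against 2 in FSClow, which is a ratio of 578 (95% exact binomial interval 160 to 4781, counting error only), and Scnn1g had 1 read and 834 reads, a ratio of 845 (151 to 33432). Scnn1a, its alpha subunit gene, fell from 26.9 ± 3.42 CPM in EpCAM to 10.04 ± 2.63 CPM in FSClow (-1.42 ± 0.22, SE, edgeR adjusted p = 9.2e-06). The cotransporter gene Slc12a2, which loads cells with chloride, was lower by -1.70 ± 0.32 in FSClow and -1.71 ± 0.38 in FSChi (SE, edgeR adjusted p = 0.00010 and 0.0019), the latter call ending in the 14 matching libraries. In contrast, the sodium bicarbonate cotransporter gene Slc4a7 was higher in FSClow by 1.98 ± 0.40 (SE, edgeR adjusted p = 0.00027). In FSChi against EpCAM 0 of these 15 genes were higher and 6 were lower (median -1.31), against 13.5% and 12.2% of all tested genes (median -0.02). The calls of Slc20a1, Slc4a4 and Slc5a1, like that of Slc12a2, ended in the 14 matching libraries. Those of Slc5a1 and Slc4a4 ended under 17 and 9 of 35 alternatives. In FSChi against FSClow 6 were higher and 2 lower (median 0.07), against 15.5% and 9.30% of all (median -0.01). Of these, Scnn1a, Scnn1b, Slc4a4 and Slc4a7 lost their calls in the 14 matching libraries.

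Regulators of sodium transport included genes called in either direction. Of 9 tested genes 3 were higher and 2 lower in FSClow than in EpCAM (median 0.34), 1 and 1 in FSChi (median -0.27), and 1 higher and 3 lower in FSChi against FSClow (median -0.74). These 9 genes stand beside 22.0% higher and 23.1% lower, 13.5% and 12.2%, and 15.5% and 9.30% of all tested genes in the same order, with medians of 0.05, -0.02 and -0.01. In FSChi against FSClow the calls of Wnk4, Tsc22d3 and Sgk3 ended in the 14 matching libraries. Sgk1, the kinase that raises sodium channel and pump numbers at the membrane, fell from 438 ± 169 CPM in EpCAM to 28.6 ± 21.98 CPM in FSClow and 42.4 ± 25.2 CPM in FSChi (-3.93 ± 0.42 and -3.36 ± 0.51, SE, edgeR adjusted p = 8.6e-08 and 4.3e-05). Nedd4l, a ubiquitin ligase that removes the channel, was higher in FSClow by 1.83 ± 0.26 (SE, edgeR adjusted p = 2.6e-06), and so were Tsc22d3 by 1.94 ± 0.26 and the related kinase gene Sgk3 by 1.57 ± 0.29.

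Potassium channels, which let out the potassium that the pump brings in, were called in both directions. Of 10 tested genes 3 were higher and 4 lower in both comparisons with EpCAM (medians 0.03 and -0.76), and 5 were higher and 1 lower in FSChi against FSClow (median 0.64). Of all tested genes 45.1%, 25.6% and 24.8% were called in either direction in these comparisons, against 7, 7 and 6 of the 10 channels. In FSChi against FSClow the calls of Kcnj16, Kcnj1 and Kcne3 ended in the 14 matching libraries. Kcnk1, called higher in FSChi than in EpCAM, also lost its call there. These calls of Kcne3 and Kcnk1 ended under 9 of 34 and 12 of 35 alternatives. The calcium-activated channel gene Kcnn4 reached 60.4 ± 9.66 CPM in FSClow and 40.6 ± 15.2 CPM in FSChi against 10.7 ± 4.85 CPM in EpCAM (2.51 ± 0.28 and 1.95 ± 0.30, SE, edgeR adjusted p = 9.5e-08 and 2.8e-05). Kcnq1 was also higher in both gates, by 1.68 ± 0.31 and 2.95 ± 0.35 (SE). The inward rectifier gene Kcnj16 fell from 57.3 ± 33.5 CPM in EpCAM to 0.356 ± 0.701 CPM in FSClow and 8.35 ± 8.38 CPM in FSChi, and Kcnj15 was lower by -5.73 ± 0.51 and -2.59 ± 0.51 (SE).

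Among 8 tested partners of the pump, 2 were higher and 3 lower in FSClow against EpCAM (median -0.09), 2 and 4 in FSChi against EpCAM (median -0.56), and 1 and 3 in FSChi against FSClow (median -0.37). Called in either direction were thus 5, 6 and 4 of the 8, against 45.1%, 25.6% and 24.8% of all tested genes. In the 14 matching libraries the calls of Ank3 in FSChi against EpCAM and of Wnk1 and Sptbn1 in FSChi against FSClow ended. That of Sptbn1 ended under 12 of 35 alternatives. Agrn, whose product agrin binds the pump, was lower by -2.76 ± 0.34 in FSClow and -2.10 ± 0.40 in FSChi (SE, edgeR adjusted p = 3.3e-07 and 0.00041). Ank2, a membrane skeleton adaptor, was lower by -3.15 ± 0.45 and -2.54 ± 0.53 (SE). The scaffold gene Slc9a3r1 was higher by 1.23 ± 0.17 and 0.91 ± 0.19 (SE). The latter call ended with RSEM counts that include the nearly empty file and held with RSEM counts without that file.

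**Figure D5:**
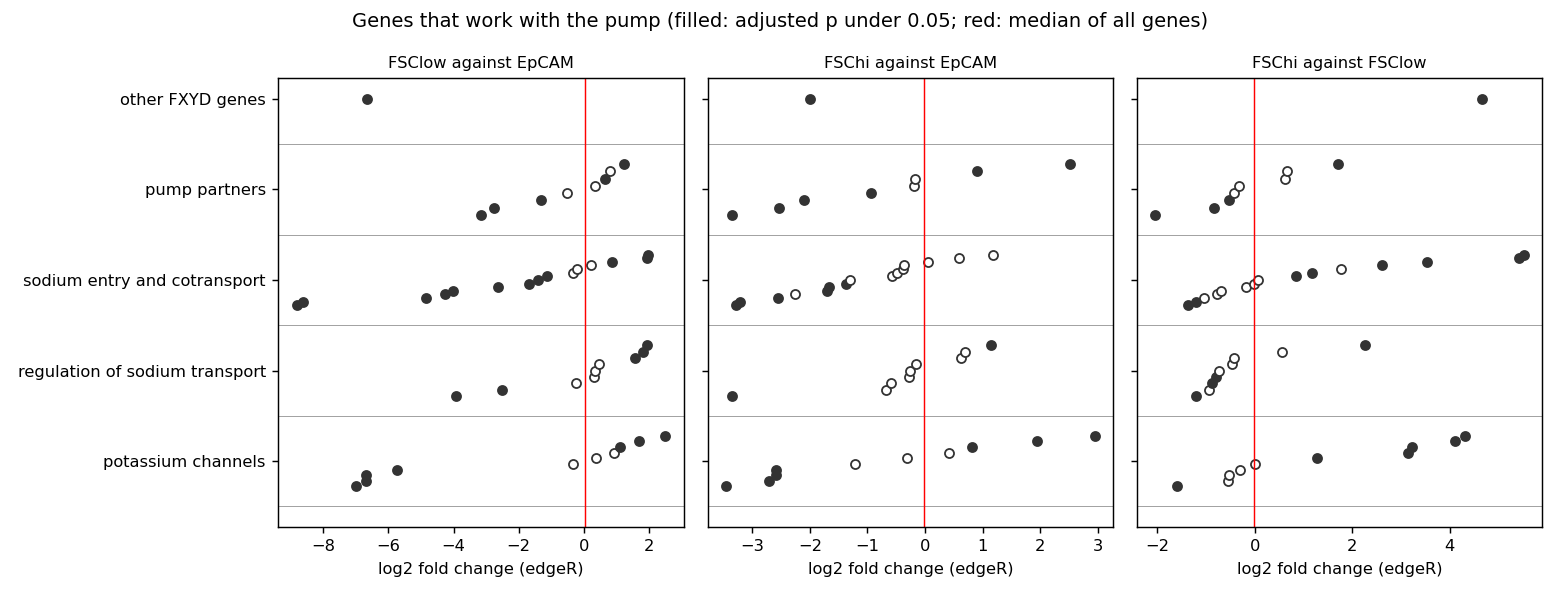
Log2 fold change from the edgeR fit (x axis, range differs between panels) of every tested gene in 5 lists of genes that work with the pump, in the 3 comparisons. Filled points passed an adjusted p of 0.05 and the red line is the median of all tested genes, 0.05, -0.02 and -0.01; 9 of 15 sodium entry and cotransport genes are filled on the left in FSClow against EpCAM.

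The genes whose pattern over the 19 libraries was most like that of each tested gene were read by Pearson's r of log2(CPM + 1), a description over libraries that fall into 3 groups and share depth. For Fxyd6 they were Bpgm, Rasgrf2 and Cerox1 (r = 0.990, 0.989 and 0.988), and for Atp1b1 Chst8, Slc24a2 and Prnp (0.976, 0.972 and 0.971). For Fxyd3 they were AA986860, Erich3 and H2-DMb2 (0.976, 0.971 and 0.968). For Atp1b2 they included Chtop and Bcl2l14 (0.917 and 0.916), for Atp1b3 Pkig, Acat1 and Armc6 (0.930, 0.911 and 0.872) and for Fxyd4 Nek11, Ptprd and Tspan4 (0.846, 0.835 and 0.828). Without the FSChi libraries, 3 of the 3 named for Fxyd6 and for Atp1b3 were among the 10 most like it, 1 for Fxyd4 and 0 for Atp1b1 and Fxyd3. With Spearman's rho over all 19 libraries the counts were 3 of 3 for Fxyd4, 1 for Fxyd6 and 0 for Atp1b1, Atp1b3 and Fxyd3, so most of the names depend on the measure of likeness.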

How the data were processed

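Libraries of 19 samples in 3 groups were analysed from the processed files. The mm10 build and the tools DESeq2, featureCounts, RSEM (1.2.21), Picard (1.1073) and STAR (2.4.2a) are named, with no roles, per the submitters' processing notes. The authors deposited raw read counts for 27179 gene identifiers, and a normalized table that is treated as a signal, its values being counts scaled by library: 100% of its values came out as whole reads within 0.01. Files of single libraries, as the authors deposited them, give expected counts from RSEM (rounded here before use) and TPM, per the file headers.

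Symbols came from RefSeq for 25275 identifiers and from the normalized table for 582. Coordinates are 1-based, mm10. The count table was filtered with filterByExpr, scaled by TMM and fitted with edgeR 4.0.16 in R 4.3.3 (robust quasi-likelihood, group as the only term, all 19 libraries), with Benjamini-Hochberg adjustment over 13340 genes. The fit was also run on simulated counts with 200 changed genes per comparison and the same spread setting for every gene. These settings are simpler than the real libraries, so that run does not measure the error rate here. SE were derived from the F statistic. Alternatives covered DESeq2 1.42.0, limma 3.58.1 on normalized and TPM values, other scalings and filters, RSEM counts, recovered reads, matching libraries, a replicate block and leaving out each library. Recovered reads, fits without the nearly empty file and family sums of CPM per exon length were added after seeing the data. The 7 genes, the gene lists and the tests were chosen with earlier results of these data known. Named beside the 7 genes were other FXYD genes with reads, up to 4 called genes of each list with the smallest p, defining markers and the 3 genes most alike in pattern; the text gives a part of them, and some genes that these rules name are not reported here. Precision is limited by totals of 1348428 to 7477695 counts and by the number of libraries; intervals of ratios cover counting error only. Ages, sexes and protein sequences were not used here.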

Additional observations from a re-analysis of the deposited data

Results flagged for a closer look

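In 4 of 21 sets of libraries (7 genes in 3 groups) the highest or lowest library lay apart from the others by Dixon's test at its 95% critical value, which chance alone passes in about 1 of 20 groups. Atp1b3 stood at 6.81 CPM (19 reads) in FSClow replicate 5, against 43.0 to 76.4 CPM in the other FSClow libraries. The same gene stood at 270 CPM (1793 reads) in EpCAM replicate 5, against 85.2 to 112 CPM in the other EpCAM libraries. Fxyd3 stood at 3.41 CPM (10 reads) in FSClow replicate 2, against 0.359 to 1.71 CPM in the others. The only read of Fxyd5 in FSClow, 0.341 CPM, also came from FSClow replicate 2, and with the other 8 libraries at 0 a single read always passes this test, so that this set says nothing against the chance rate.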

How the results depend on the processing

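Of 727 recomputed log2 fold changes (the 6 tested genes and Fxyd2), 655 kept their direction and side of the threshold, 54 lost and 12 gained a call, and 6 changed sign. Those 6, all in FSChi against FSClow and none called, were Atp1b3 at -1.51 and -0.86 (log2(TPM + 0.1) and log2(TPM + 1)), and Fxyd4 at -0.82 and -0.20 in the same fits, -0.11 in the first without the nearly empty file and -0.23 without FSChi replicate 1 (up to 0.66 with each other library left out). The cause was not tested. With log2(TPM + 0.1), 3 of the 7 genes were called in FSClow against EpCAM (1 higher, 2 lower), 1 in FSChi against EpCAM (0 higher, 1 lower) and 0 in FSChi against FSClow (0 higher, 0 lower), and 2414, 1343 and 324 genes of all. Without the nearly empty file the second comparison gave 2 (1 higher, 1 lower) and 2157 genes, and the third 1886 genes. With log2(TPM + 1), the first gave 3110 genes, the second 2 of the 7 (1 higher, 1 lower) and 2121 genes, and the third 0 (0 higher, 0 lower) and 963 genes; without that file 1 was higher in the second and 1950 genes were called in the third. RSEM counts without that file gave 1 lower gene in the second. The 14 matching libraries gave 1 of the 7 in the second (1 higher, 0 lower) with 1838 genes, and 0 lower in the third with 1754 genes. With only the compared groups 2106 genes were called in the third. Leaving out each library moved the lower genes of the second between 1 and 3, and all genes called between 5430 and 6508, 2702 and 3572, and 2634 and 3498. Same-numbered libraries did not deviate together (15 pairs, correlation -0.213 to 0.442, median -0.0065; the best partner had the same number in 3 of 15). With the replicate block 1982 genes were called in the third comparison, and of the 7 genes the call of Fxyd4 in FSClow against EpCAM ended (adjusted p = 0.069). As a share of FXYD transcripts by CPM per union exon length, Fxyd6 was 99.5%, 94.4% and 29.5% in FSClow, FSChi and EpCAM. Fxyd3 was 0.156%, 4.20% and 47.6% on that scale. Of 21 group shares of the 7 genes, 10 differed from the TPM share by at least its SD. Depth limits genes with few reads, Fxyd4, Fxyd5 and Fxyd2 among them.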
